A study of Mus musculus with 7 samples.

Results

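The platelet-derived growth factor (PDGF) ligand genes Pdgfa, Pdgfb, Pdgfc and Pdgfd and the receptor genes Pdgfra and Pdgfrb were read from 7 Affymetrix Mouse 430 2.0 arrays. Every probe set whose only gene symbol in the platform annotation was one of these 6 names was taken, which gave 14 of 45101 probe sets, 5 for the receptors and 9 for the ligands. A group of 4 arrays, called stromal 1 to 4, held bone marrow cells sorted as CD54+CD31-BP1+, and 3 arrays, called endothelial 1 to 3, held cells sorted as CD54-CD31+. Both populations were also sorted as CD45- and lineage-negative, came from wild-type C57Bl/6J mice 6 to 12 weeks old, and gave 1800 to 10000 cells for an array, whose RNA was amplified before labelling. The labels do not say whether the arrays of a population came from separate mice or sorts, so the p-values measure only the spread between these arrays. Levels are on the log2 scale as deposited, and each difference is the stromal mean minus the endothelial mean.

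PDGFs are secreted as disulfide-linked dimers. The A and B chains are cleaved by furin-like proteases inside the cell, whereas the C and D chains carry a CUB domain that must be removed outside the cell before they bind a receptor. The alpha receptor, encoded by Pdgfra, binds A, B and C chains, and the beta receptor, encoded by Pdgfrb, binds B and D chains most strongly. Both are class III receptor tyrosine kinases that pair on ligand binding and recruit PI3-kinase, phospholipase C gamma, the phosphatase SHP2 and the Grb2-Sos complex. Endothelial PDGF-B recruits pericytes that carry the beta receptor, megakaryocytes and platelets store PDGF in their alpha granules, and both receptors are used as surface markers of marrow mesenchymal cells.

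The proximal promoters of 3 members that differed between the populations are shown so that the 2 directions of difference can be set beside their sequence. They are the 250 bases before an annotated transcript start from RefSeq on GRCm38.p6, written 5′ to 3′ on the strand of the gene. Pdgfra (chr5:75152001-75152250, plus strand) and Pdgfd (chr9:6168236-6168485, plus strand) were higher on the stromal arrays, and Pdgfa (chr5:138994945-138995194, minus strand) was lower on them. Capitals mark matches to any of the searched motifs.
Pdgfra: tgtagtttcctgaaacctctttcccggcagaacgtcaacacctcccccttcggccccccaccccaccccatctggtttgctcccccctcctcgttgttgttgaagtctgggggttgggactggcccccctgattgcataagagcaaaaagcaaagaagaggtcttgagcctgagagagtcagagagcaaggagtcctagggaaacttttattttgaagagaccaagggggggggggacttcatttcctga
Pdgfd: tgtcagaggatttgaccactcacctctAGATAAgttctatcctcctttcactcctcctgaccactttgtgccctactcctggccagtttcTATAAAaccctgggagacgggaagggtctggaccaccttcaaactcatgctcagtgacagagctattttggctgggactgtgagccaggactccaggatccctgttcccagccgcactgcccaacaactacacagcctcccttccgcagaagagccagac
Pdgfa: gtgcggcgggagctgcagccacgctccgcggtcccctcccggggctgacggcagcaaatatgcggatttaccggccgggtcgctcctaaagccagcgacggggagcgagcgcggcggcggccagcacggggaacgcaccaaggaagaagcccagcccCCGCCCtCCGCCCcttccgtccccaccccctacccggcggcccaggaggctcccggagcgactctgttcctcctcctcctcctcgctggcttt
The 7 motifs were searched on both strands: the GC box GGGCGG, the TATA box TATAAA, the CCAAT box, the E-box CACGTG, the forkhead motif GTAAACA, the GATA motif AGATAA and the ETS motif CCGGAAGT. The Pdgfa window held 2 GC boxes on the reverse strand, 93 and 86 bases before the start and 1 base apart. A second annotated Pdgfa start (chr5:138994282-138994531) had 1 GC box 60 bases before it, and 32.7% of the 32851 promoter windows searched held a GC box. The Pdgfd window held a TATA box 160 bases and a GATA motif 223 bases before the start, motifs found in 12.4% and 9.99% of all windows. None of these letter strings was in the Pdgfra or Pdgfc window. The bases G and C made up 72.4% and 66.4% of the Pdgfa windows, 54.4% of the Pdgfra window, 53.6% of the Pdgfd window and 50.8% of the Pdgfc window, against a median of 52.4% and a 75th percentile of 61.2% over all windows. Promoter entries of 4 members (5 windows) were used. No windows of Pdgfb or Pdgfrb were searched, so the sequences cover only part of the members called in each direction.

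Each population carried the antigen transcripts of its gate, with 1 exception. Icam1 (CD54) and Enpep (BP1) were higher on the stromal arrays by 5.19 and 6.93, and Pecam1 (CD31) was lower there, at -3.48. The exception was Ptprc, which encodes the leukocyte antigen CD45, at 4.91 to 7.42 on the stromal and 8.63 to 10.94 on the endothelial arrays. Its 4.91, on stromal 3, was under that array's 40th percentile of 5.52, and its other values were above theirs. Over all genes tested, 30.9% were called higher and 16.1% lower on the stromal arrays, shares to set beside the marker counts that follow. All 9 reticular stroma markers were called higher on the stromal arrays, including Adipoq, Lepr and Cxcl12 at 8.74, 8.67 and 7.89. All 12 megakaryocyte and platelet markers tested were called lower there, including Clec1b, Ppbp and Gp1bb at -8.74, -8.59 and -7.91. Their mean lay at 6.77, 6.46, 6.23 and 8.58 on stromal 1 to 4 and at 13.86, 13.52 and 13.75 on endothelial 1 to 3. Of 13 endothelial markers 7 passed the filter on dim genes and 5 of these were called lower on the stromal arrays, among them Esam, Plvap and Pecam1 at -5.01, -3.58 and -3.48. Cdh5, which encodes VE-cadherin, and Emcn lay under the 40th percentile of their array on all 7 arrays. The label endothelial is therefore used here as the name of the sort gate. Other blood cell lists also held genes called lower on the stromal arrays: 6 of 6 pan-leukocyte, 3 of 5 B-lineage, 5 of 8 neutrophil precursor, 3 of 6 macrophage (with 1 called higher) and 2 of 4 erythroid markers tested. All 4 osteoblast markers tested were called higher, 1 of 3 Schwann cell markers was called lower, and of 7 fibroblast progenitor markers 1 was called higher and 2 lower. Megakaryocyte, leukocyte and reticular markers differed between the populations alongside the PDGF genes, and their part in the PDGF differences was not tested. In bulk RNA, fewer cells that use a gene and less RNA of it per cell cannot be told apart.

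**Figure D1:**
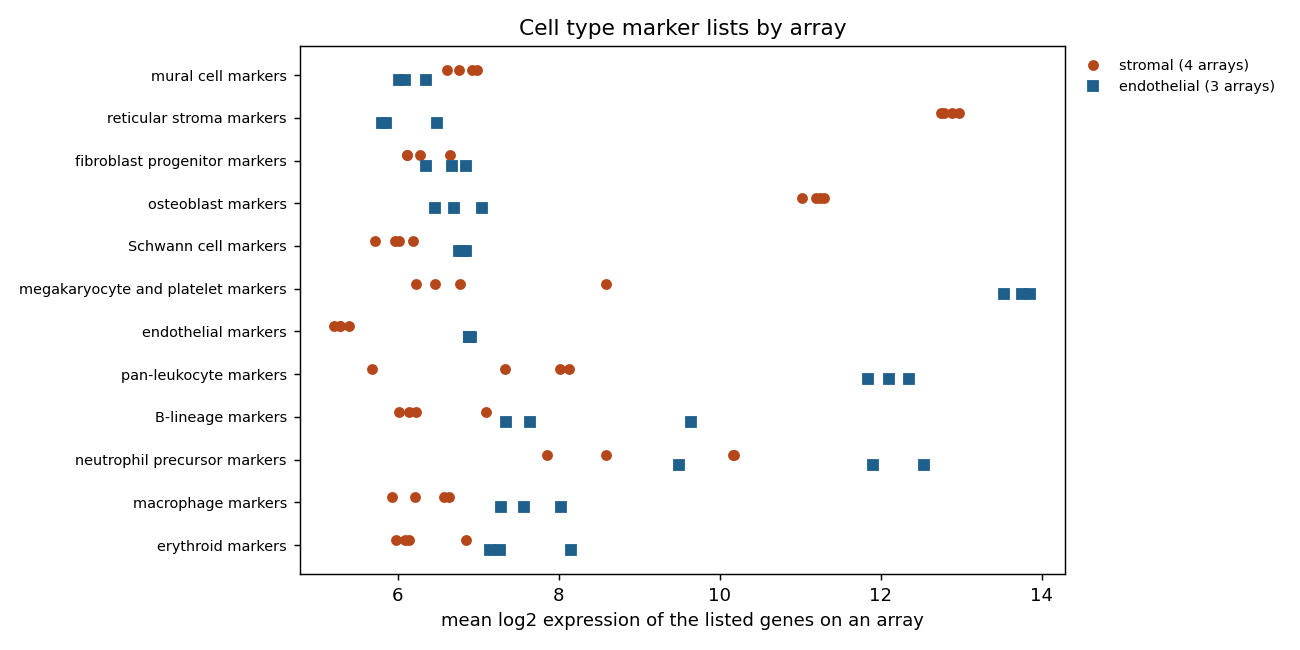
Mean log2 expression (x axis) of the listed marker genes on each array, for 12 marker lists. Orange circles are the 4 stromal and blue squares the 3 endothelial arrays. The reticular stroma markers lie at 12.74 to 12.97 on the stromal arrays and 5.80 to 6.49 on the endothelial arrays, and the megakaryocyte list is higher on stromal 4, at 8.58, than on the other stromal arrays.

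Both receptor genes and 1 ligand gene, Pdgfd, were higher on the stromal arrays, and the ligand genes Pdgfa and Pdgfb were lower on them. Pdgfc passed in neither direction. With 1 probe set per gene, chosen by its highest mean, 3 of the 6 genes were called higher and 2 lower on the stromal arrays (limma, adjusted p under 0.05 over 13995 genes and a log2 difference of at least 1). Of all genes tested, 30.9% were called higher and 16.1% lower, 47% in all, so a call is common in this comparison. By probe set, 12 of the 14 passed the filter, and 7 were called higher and 4 lower, against 26% and 14.6% of 29439 probe sets tested. Of the 12, 4 had no array of their lower population above its 40th percentile and passed through the other population alone. The populations did not overlap in 11 of the 12 tested PDGF probe sets, where they did not overlap in 61.6% of all probe sets tested.

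**Figure D2:**
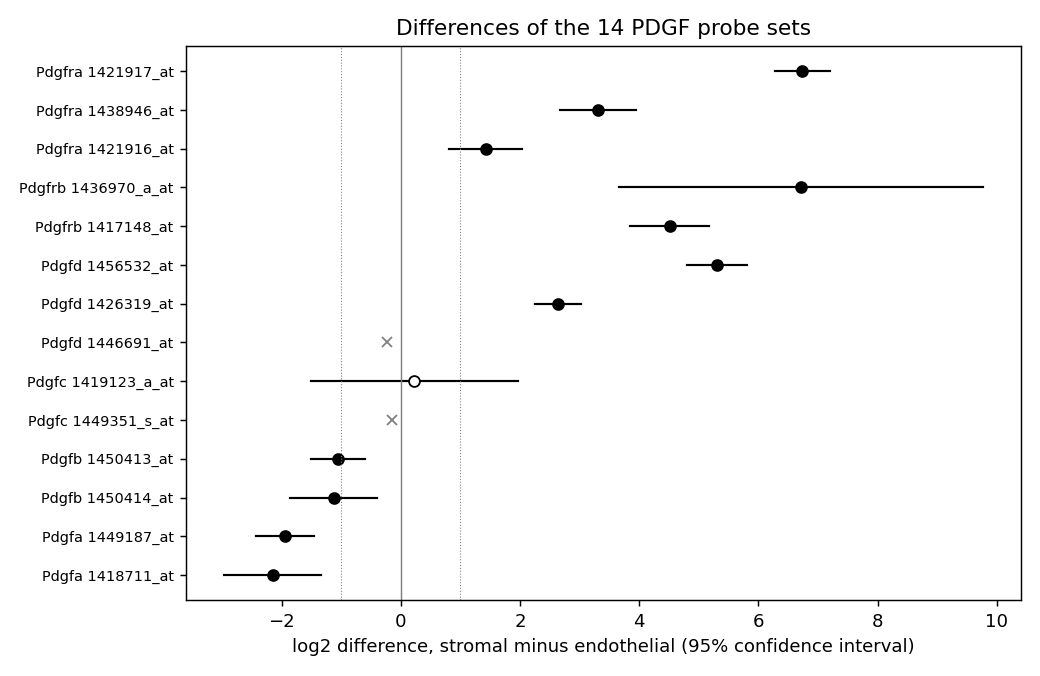
Log2 difference, stromal minus endothelial (x axis), of each of the 14 PDGF probe sets. Filled circles were called, the open circle was tested and not called, bars are 95% confidence intervals from the probe set fit, crosses were under the filter and not tested, and dotted lines mark the difference of 1 that a call requires. All 5 receptor probe sets lie to the right of it, at 1.42 to 6.74, and the 4 probe sets of Pdgfa and Pdgfb to the left, at -2.15 to -1.06.

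Pdgfra, the receptor for A, B and C chains, was higher on the stromal arrays by all 3 of its probe sets. Pdgfra probe set 1421917_at lay at 13.34, 13.02, 12.93 and 13.18 on stromal 1 to 4, against 6.08, 6.59 and 6.46 on endothelial 1 to 3. The 4 stromal arrays lay within 0.41 of each other and the lowest of them was 6.33 above the highest endothelial array. The difference was 6.74 (SE 0.20, 95% interval 6.28 to 7.20, limma adjusted p = 1.92e-07), a 107-fold higher level, and its size exceeded that of 99.4% of the probe sets tested.

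The other Pdgfra probe sets gave the same direction and a smaller size. Probe set 1438946_at lay at 9.53, 9.43, 9.05 and 8.70 on stromal 1 to 4 and at 5.62, 5.67 and 6.31 on endothelial 1 to 3. Its difference was 3.31 (adjusted p = 3.90e-05 in the probe set fit). Endothelial 1 and 2 were just under their array's 40th percentile by this probe set, which limits the size of the difference. The dimmest, 1421916_at, lay at 6.95, 6.53, 6.54 and 7.46 on stromal 1 to 4, against 5.48, 5.25 and 5.61 on endothelial 1 to 3, a difference of 1.42 (adjusted p = 0.00277). All 3 endothelial values of 1421916_at were under their array's 40th percentile, and the size of that difference is limited by this floor. The stromal arrays did not hold one order: stromal 4 was the lowest of them by 1438946_at and the highest by 1421916_at. With the mean of the 3 probe sets the Pdgfra difference was 3.83, so its size holds for the probe set used and its direction for all 3.

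Pdgfrb, the receptor for B and D chains, was also higher on the stromal arrays by both of its probe sets. Probe set 1436970_a_at lay at 13.64, 13.36, 13.67 and 13.64 on stromal 1 to 4, against 2.93, 8.94 and 8.72 on endothelial 1 to 3. Every stromal array was at least 4.42 above every endothelial array, and endothelial 1 stood 5.79 below the other endothelial arrays. The difference was 6.71 with a wide 95% interval of 3.72 to 9.71 (SE 1.30, limma adjusted p = 0.00256). It was 4.75 without endothelial 1 (adjusted p = 5.45e-06), 7.75 without endothelial 2, and 10.65 when endothelial 1 alone stood for its population. The 2.93 on endothelial 1 was under that array's 40th percentile of 5.68. The sizes of 6.71, 7.75 and 10.65, which use it, are therefore limited by this floor.

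The second Pdgfrb probe set, 1417148_at, lay at 12.35, 11.84, 12.06 and 12.19 on stromal 1 to 4, against 8.20, 7.04 and 7.56 on endothelial 1 to 3. By this probe set endothelial 1 had the most Pdgfrb of the endothelial arrays, and by 1436970_a_at the least. Its difference of 4.51 (95% interval 3.85 to 5.17, adjusted p = 8.75e-06 in the probe set fit) is a 22.8-fold higher level and close to the 4.75 of the other probe set without endothelial 1. A single endothelial 1 value 5 or more below both other endothelial arrays was found in 2 of 45037 probe sets. The other of the 2 has no gene symbol here. Endothelial 3 had such a value in 3 probe sets and endothelial 2 in 0, so gaps of this size were not particular to endothelial 1. The spread within populations of 1436970_a_at exceeded that of 99.98% of the probe sets tested, and the spread of 1417148_at that of 59.9%.

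**Figure D3:**
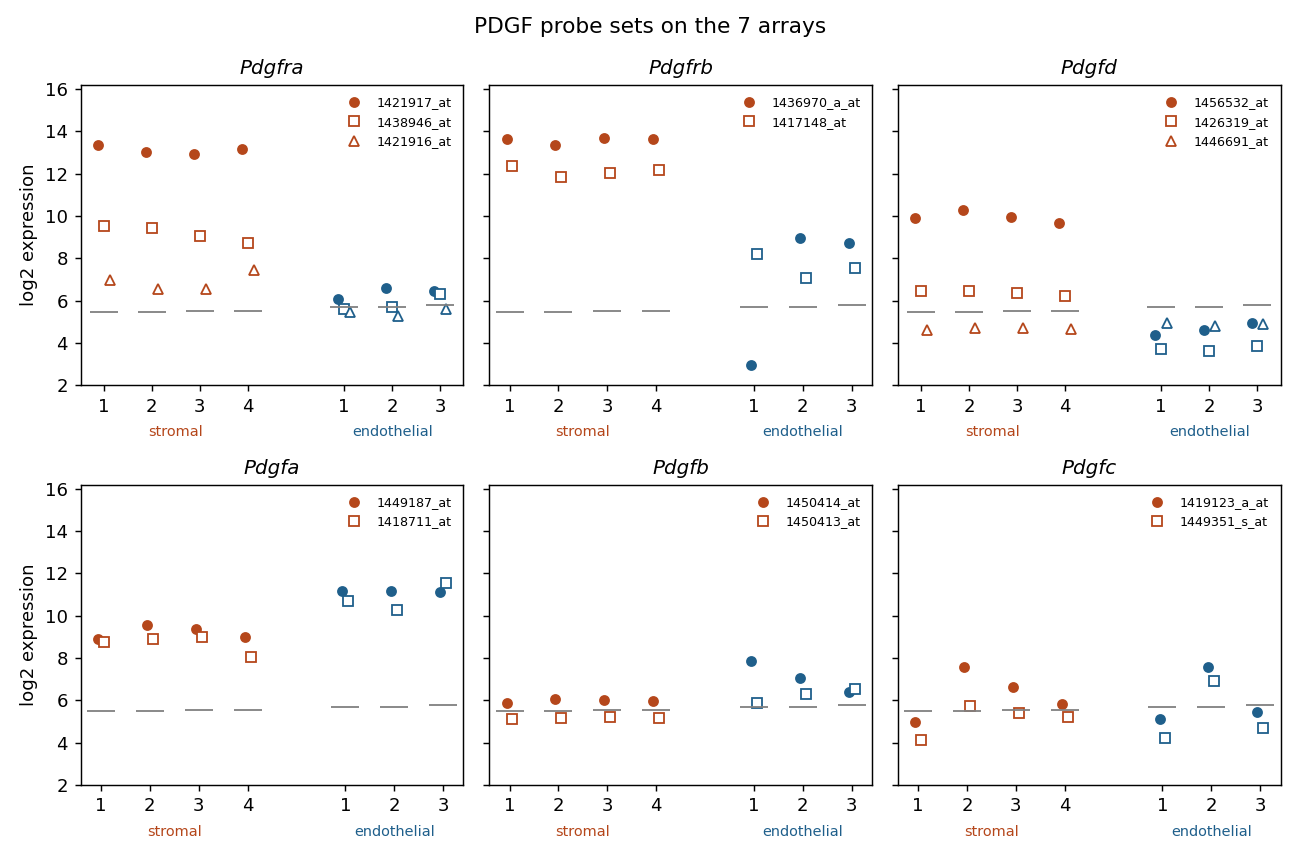
Log2 expression (y axis) of every PDGF probe set on each array (x axis, stromal 1 to 4 left in orange, endothelial 1 to 3 right in blue), 1 panel per gene. Filled symbols are the probe set that represents the gene, open symbols its other probe sets, and grey dashes the 40th percentile of each array. Pdgfra and Pdgfrb separate the populations by both filled and open symbols, and the filled Pdgfrb circle of endothelial 1, at 2.93, lies apart from its open square, at 8.20.

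Among the ligands Pdgfd was the only one called higher on the stromal arrays. It encodes a CUB-domain chain that acts through the beta receptor. Probe set 1456532_at lay at 9.91, 10.27, 9.93 and 9.66 on stromal 1 to 4, against 4.38, 4.60 and 4.94 on endothelial 1 to 3. The endothelial values were all under their array's 40th percentile, and the gap between the populations was 4.73. The difference was 5.30 (SE 0.22, 95% interval 4.81 to 5.80, limma adjusted p = 5.36e-07), and no fold is given because the endothelial level is at the floor.

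Probe set 1426319_at of Pdgfd lay at 6.45, 6.46, 6.38 and 6.19 on stromal 1 to 4, against 3.70, 3.64 and 3.87 on endothelial 1 to 3, a difference of 2.64 (adjusted p = 8.56e-06 in the probe set fit). The endothelial values of 1426319_at were all under their array's 40th percentile. The third, 1446691_at, was under the filter and dim on all 7 arrays. It lay at 4.59 to 4.71 on the stromal and 4.82 to 4.94 on the endothelial arrays, and was not tested. The mean of the 3 probe sets, with this one in it, gave a Pdgfd difference of 2.57.

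Pdgfa, which encodes the A chain, a ligand of the alpha receptor, was lower on the stromal arrays and well above the arrays' floor in both populations. Probe set 1449187_at lay at 8.91, 9.57, 9.40 and 8.99 on stromal 1 to 4, against 11.16, 11.19 and 11.13 on endothelial 1 to 3. The endothelial arrays agreed within 0.06, and the lowest of them was 1.56 above the highest stromal array. Pdgfa was lower by 1.95 on the log2 scale, 3.85-fold (SE 0.21, 95% interval -2.43 to -1.46, limma adjusted p = 1.08e-04).

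Probe set 1418711_at of Pdgfa lay at 8.77, 8.89, 8.995 and 8.05 on stromal 1 to 4, against 10.68, 10.27 and 11.53 on endothelial 1 to 3. Here the endothelial arrays spread over 1.26, and the difference was -2.15 (adjusted p = 0.00154 in the probe set fit). Stromal 4 was the lowest stromal array by this probe set and the second lowest by the other. Without stromal 4 the Pdgfa difference was -1.87 by 1449187_at and -1.94 by 1418711_at.

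Pdgfb, the B chain that binds both receptors, was called lower on the stromal arrays by a margin that single arrays decided. Probe set 1450414_at lay at 5.88, 6.05, 6.00 and 5.96 on stromal 1 to 4, against 7.85, 7.03 and 6.41 on endothelial 1 to 3. The populations did not overlap, but the nearest arrays, stromal 2 and endothelial 3, were 0.36 apart. The difference was -1.13 (SE 0.31, 95% interval -1.84 to -0.41, limma adjusted p = 0.0127), a 2.18-fold lower level. It was -0.75 without endothelial 1, under the required difference (adjusted p = 0.0208), and -1.87 when endothelial 1 alone was set against them.

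Probe set 1450413_at of Pdgfb lay at 5.12, 5.16, 5.22 and 5.18 on stromal 1 to 4, against 5.89, 6.28 and 6.52 on endothelial 1 to 3, a difference of -1.06 (adjusted p = 0.00262 in the probe set fit). Its stromal values were all under their array's 40th percentile. The probe sets ranked the endothelial arrays in opposite order: endothelial 1 was the highest by 1450414_at and the lowest by 1450413_at. Without endothelial 3 the 1450413_at difference was -0.91 and was not called.

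Pdgfc, the second CUB-domain chain and a ligand of the alpha receptor, differed between arrays more than between populations. Probe set 1419123_a_at lay at 4.98, 7.59, 6.63 and 5.81 on stromal 1 to 4, against 5.09, 7.56 and 5.42 on endothelial 1 to 3. The populations overlapped almost fully, with stromal 2 and endothelial 2 the highest of their groups. The difference was 0.23 (SE 0.74, 95% interval -1.48 to 1.93, limma adjusted p = 0.795), an interval that leaves room for a difference of over 1 in either direction. The second probe set, 1449351_s_at, was under the filter and lay at 4.11, 5.74, 5.40 and 5.22 on stromal 1 to 4 and at 4.22, 6.90 and 4.68 on endothelial 1 to 3. It had the same highest arrays, stromal 2 and endothelial 2.

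Arrays labelled endothelial 2 and 3 had brighter hybridisation controls, which report spiked-in label, than the other arrays. The mean of the 18 control probe sets was 9.51 to 9.67 on the stromal arrays, and 9.75, 11.33 and 11.37 on endothelial 1 to 3. Endothelial 1 alone against the stromal arrays gave -1.94 for Pdgfa, 5.56 for Pdgfd, 7.03 for Pdgfra and 1.16 for Pdgfc. With 1 endothelial array these are values without an error of their own, since the spread comes from the stromal arrays alone. The excess of the 3′ over the 5′ Gapdh control probe set was 3.07 to 3.51 on the stromal arrays and 2.54, 3.50 and 2.37 on endothelial 1 to 3. For the Actb control it was 1.30 to 1.79 on the stromal arrays and 0.65, 1.49 and 0.96 on endothelial 1 to 3. By both controls endothelial 1 and 3 lay below every stromal array. The part of this in the PDGF differences was not tested. The median difference over all 13995 genes was 0.19 as deposited and -0.12 after a second quantile normalization, and the differences of the 5 called members kept their sign under each scaling tried. Calls higher on the stromal arrays made up 65.7% of all calls as deposited, and 52% after that normalization.

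Over all tested genes, those whose centred profile over the 7 arrays lay nearest to a member were named, with likeness measured as the root mean square distance in log2 units. Nearest to Pdgfra were C1ra (0.14), which encodes the complement protease C1r, Aldh1a2 (0.14), a retinaldehyde dehydrogenase gene, and Nid1 (0.14), the gene of the basement membrane protein nidogen-1. Nearest to Pdgfd were Ccn5 (0.12), Mmp2 (0.14), the gene of gelatinase A, and Nectin3 (0.15). Pdgfa lay nearest to Abhd2 (0.09), Ptpn12 (0.10) and Pla2g4a (0.12), the cytosolic phospholipase A2 gene. Pdgfb lay nearest to Ghrl (0.09), Sapcd2 (0.10) and Dedd (0.13). Distances were larger for the others: the nearest were Sparc (1.18), Emp1 (1.29) and Slc5a3 (1.31) for Pdgfrb, and Tmie (0.51), Gm5544 (0.53) and Prps2 (0.53) for Pdgfc. Sparc was also lowest on endothelial 1, at 6.33 against 8.31 and 8.67 on endothelial 2 and 3. Its choice as the nearest profile favours such a value, so it is no check on the 2.93 of Pdgfrb there.

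Genes that process or bind PDGF ligands were listed next. Of 12 genes 11 were tested, and 5 were called higher and 2 lower on the stromal arrays. The median difference was 0.61, against 0.19 over all genes tested. Calls over all genes tested were 30.9% higher and 16.1% lower, shares to set beside this and the later lists. Sparc, whose product binds PDGF-B, lay at 14.28, 14.12, 14.19 and 13.93 on stromal 1 to 4, and was higher by 6.36. The co-receptor genes Nrp1 and Lrp1 were higher by 5.25 and 4.44, and Pcsk5, a furin-like protease gene, by 3.74. Pdgfrl, which encodes a PDGF receptor-like protein without a kinase, lay at 7.47, 7.25, 6.71 and 6.73 on the stromal and 5.99, 5.24 and 5.59 on the endothelial arrays, a difference of 1.43 (limma adjusted p = 0.00227).

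Proteases act on the ligands outside or inside the cell. St14, the matriptase gene, whose product cleaves PDGF-D, lay at 5.50 to 5.68 on the stromal arrays and 6.89 to 7.41 on the endothelial arrays and was called lower on the stromal arrays by -1.47. Plat, the tissue plasminogen activator gene, whose product cleaves PDGF-C, lay at 6.21 to 7.62 on the stromal and 6.15 to 6.22 on the endothelial arrays and was not called (0.61, adjusted p = 0.141). Furin, which matures the A and B chains, stood at -0.03 (adjusted p = 0.919). Thbs1, which encodes a platelet granule protein that binds PDGF, was lower on the stromal arrays at -3.37.

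Genes that carry the signal of PDGF receptors went both ways. Of 32 listed genes 26 were tested, and 11 were called higher, 6 lower and 9 in neither direction, with a median difference of 0.68. Over all genes tested the shares were 30.9% higher and 16.1% lower. Stat5a, a transcription factor gene, and Yes1, a Src-family kinase gene, were higher on the stromal arrays by 3.55 and 3.53, and Plcg1, phospholipase C gamma, by 2.34. The PI3-kinase subunits split: Pik3r1, Pik3r2 and Pik3ca were higher by 2.26, 1.84 and 1.14, and Pik3cb was lower at -4.89. Pik3cb lay at 4.38, 5.03, 4.01 and 5.47 on stromal 1 to 4, against 9.85, 10.27 and 8.73 on endothelial 1 to 3. These stromal values and the endothelial values of Yes1 were all under their array's 40th percentile, which limits the size of both differences. The adaptor genes Grb2 and Nck2, the kinase genes Src and Fyn, and Ptpn11, the gene of SHP2, were also called lower on the stromal arrays, at -1.46, -3.32, -1.71, -3.47 and -3.02.

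Genes that end or limit receptor signalling were likewise mixed. Of 16 tested, 6 were called higher and 4 lower on the stromal arrays, with a median of 0.84. The shares over all genes tested were 30.9% and 16.1%. Spry1, a feedback inhibitor of Ras signalling, was higher by 2.74, Slc9a3r2, a PDZ scaffold gene, by 2.58, and Dusp6, an ERK phosphatase gene, by 2.15. Ptprj, a receptor phosphatase gene whose product acts on PDGF receptors, was lower at -3.52. It lay at 7.97, 7.48, 7.45 and 7.53 on stromal 1 to 4, against 11.62, 10.60 and 11.17 on endothelial 1 to 3.

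The other class III receptors and their ligands had 4 genes called higher and 2 lower on the stromal arrays, of 6 tested. Over all genes tested 30.9% were called higher and 16.1% lower. The ligand genes Kitl, Csf1 and Il34 were all higher, by 5.32, 4.88 and 3.60. The receptors divided: Csf1r and Flt3 were lower, at -2.19 and -2.09, and Kit was higher by 1.31 (limma adjusted p = 0.0456). Kit lay at 8.09, 6.52, 6.25 and 7.37 on stromal 1 to 4, against 5.87, 6.42 and 4.97 on endothelial 1 to 3, with stromal 3 below endothelial 2.

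Genes known to respond early to growth factors were called higher on the stromal arrays in 9 and lower in 2 of 16 tested. Their median was 1.14, and the shares called over all genes tested were 30.9% higher and 16.1% lower. Egr1 was higher by 2.38, Jun by 2.19 and Dusp1 by 2.00, and Odc1, the ornithine decarboxylase gene, was lower at -2.13. These genes also respond to cell sorting and many other signals, and no treatment with PDGF is part of the study.

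**Figure D4:**
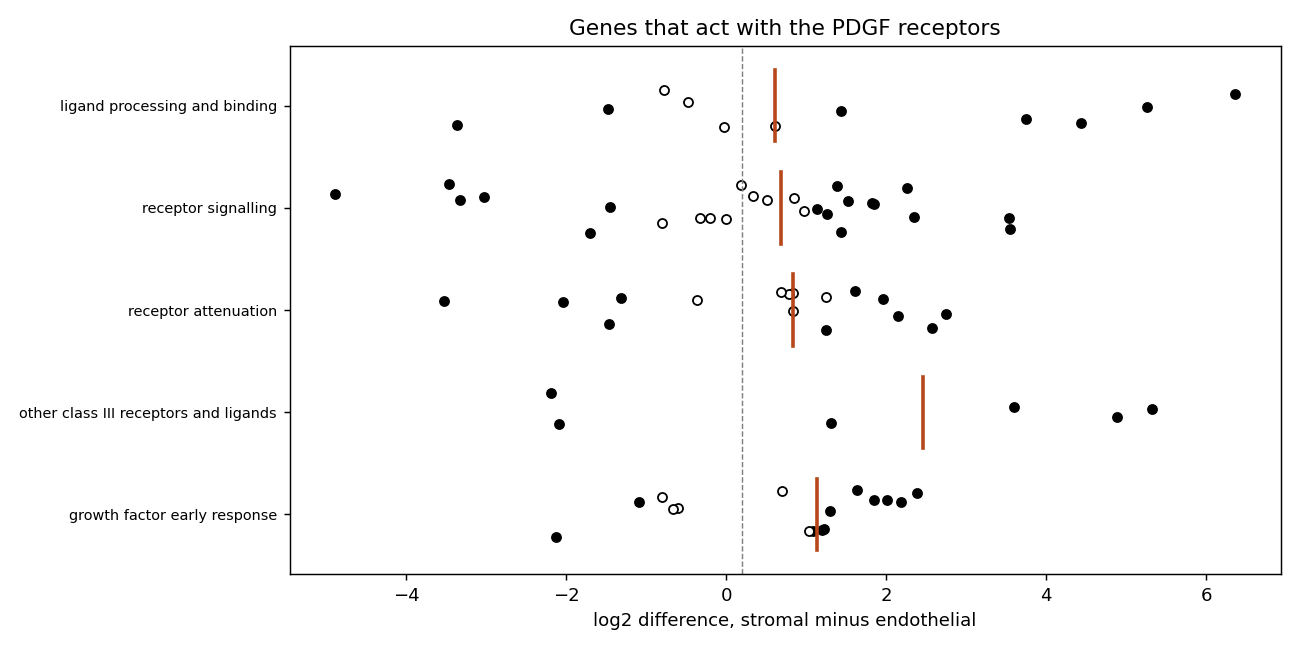
Log2 difference, stromal minus endothelial (x axis), of each tested gene in 5 lists around the PDGF receptors. Filled circles were called, open circles were not, orange bars are list medians and the dashed line is the median of all genes tested, 0.19. Each list holds genes called in both directions, and the medians lie at 0.61, 0.68, 0.84, 2.45 and 1.14 from top to bottom.

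Mural cell markers were set beside Pdgfrb, which pericytes also express. Of 14 on the array 9 passed the filter, 5 were called higher on the stromal arrays and the other 4 were not called. Among all genes tested 30.9% were called higher. Notch3 and Abcc9 were higher by 4.76 and 4.71 and Rgs5 by 2.28. Cspg4, the gene of the pericyte proteoglycan NG2, lay at 6.53 to 6.77 on the stromal and 7.39 to 7.85 on the endothelial arrays and was not called (-0.95, adjusted p = 0.00220). Acta2, smooth muscle actin, lay at 7.50 to 8.41 on the stromal and 6.83 to 8.26 on the endothelial arrays. Mcam, Anpep, Higd1b and the contractile genes Myh11 and Cnn1 were under the filter and not tested. Their differences were -0.50, -0.61, -0.56, -1.10 and -1.39, all lower on the stromal arrays. The median difference was 1.05 over the 9 tested genes and 0.08 over all 14. Over the 14 genes the marker mean lay at 6.62 to 6.99 on the stromal and 6.02 to 6.35 on the endothelial arrays.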

How the data were processed

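Gene expression was measured on 7 arrays. Per the submitters' processing notes, the authors made the deposited log2 values with Affymetrix Expression Console 1.1 and RMA. RMA corrects background, normalizes by quantiles and summarises probe sets; which arrays were normalized together is not given in the sources used here. RMA can make low levels look alike, so differences from the floor are limited. No detection calls were used. For arrays the number limits the precision.

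Symbols came from a 2016 platform annotation. Of 45101 probe sets 34945 had 1 symbol, 932 several, 9160 none and 64 were controls. All 6 member symbols matched the RefSeq gene table. The probe set with the highest mean stood for a gene. Genes above the 40th percentile of an array on 3 or more arrays were tested, 13995 of 18193 genes. A fit over 29439 probe sets used the same filter. Both used limma 3.58.1 in R 4.3.3 (lmFit, eBayes, two-sided, Benjamini-Hochberg). No fold is given where a population's mean was under its arrays' mean 40th percentile. The procedure was tested on simulated data with independent noise around each gene's mean and shifts added to some genes. Those data had no floor, so differences at the floor were not checked by them.

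The members, the 17 gene lists, the tests and the alternatives were chosen with earlier results of these data known. Genes named are the members, the sorting antigens, the 3 nearest profiles per member and, per list, up to 3 called genes in the main direction and 1 in the other; other list members named were chosen after their values were seen. Leaving out arrays kept the probe sets and tested genes as chosen on all 7.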

Additional observations from a re-analysis of the deposited data

Results flagged for a closer look

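Among 66 groups of 4 stromal values, 6 had an array set apart from the other 3 by more than Dixon's 95% critical value, where chance flags about 1 in 20 groups. The only member among them was Pdgfrb probe set 1436970_a_at, at 13.36 on stromal 2, 0.28 below the next array. Ppbp, a platelet chemokine gene, stood at 10.19 on stromal 4, 5.89 above the next array. Icam1 was 11.02 and Jun 12.35 on stromal 4, Ptprj was 7.97 and Cxcl12 14.82 on stromal 1. Groups of 3 were not put to this check, so the 2.93 of Pdgfrb on endothelial 1 is not among these.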

How the results depend on the processing

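Under 19 alternatives Pdgfa, Pdgfd, Pdgfra and Pdgfrb kept their direction and their call; 1 of the 19 has endothelial 1 as its only endothelial array, with the spread taken from the stromal arrays, so its call is no check on the spread of the endothelial arrays. Their differences ranged from -2.40 to -1.80, 2.57 to 5.56, 3.83 to 7.03 and 4.51 to 10.65. Pdgfb kept its direction in all 18 alternatives that tested it and its call in 15. It missed the required difference after cyclic loess (-0.96) and the stricter test of limma treat (-1.13, adjusted p = 0.800), and ranged from -1.47 to -0.75 with single arrays left out. A filter at the 60th percentile left Pdgfb and Pdgfc untested. The number of PDGF genes called lower on the stromal arrays, 2, was 1 after that filter, cyclic loess and treat, and 1 to 2 with single arrays left out; that of PDGF probe sets, 4, was 2 under the same 3 settings. With treat 2220 genes were called higher and 855 lower, and 3581 and 1506 probe sets. For the 11 called PDGF probe sets, 172 of 183 values under alternatives kept the call and 11 lost it with their direction kept. The losses were mostly those of Pdgfb: 1450413_at kept its call in 10 of 16 alternatives and 1450414_at in 12 of 16. Pdgfra probe set 1421916_at kept its call in 15 of 16. The 1450413_at difference was -0.91 after a second quantile normalization, -0.99 with array weights and -0.58 after cyclic loess, all under the required difference. Pdgfc probe set 1419123_a_at was called under none of its 16, and its sign turned in 3, all with single arrays left out. With replicate number as a block, which absorbs stromal 4, Pdgfa, Pdgfb, Pdgfd, Pdgfra and Pdgfrb stood at -1.87, -1.12, 5.40, 6.72 and 6.69, and 4176 genes were called higher and 2278 lower. At gene level the block changed no call of a member, and in the probe set fit Pdgfb probe set 1450414_at was not called (-1.12, adjusted p = 0.0554). The same-numbered arrays of the 2 populations deviated from their group means with correlations of -0.0021, 0.035 and 0.12, and only 1 of the 3 was over 0.1, so the arrays were taken to share only a number. Stromal 2 and 3 correlated best with the endothelial array of their own number and stromal 1 with endothelial 2. The number of arrays and the floor limit the low levels, mainly Pdgfb, Pdgfc and the endothelial Pdgfd.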
